A study of Mus musculus with 14 samples.

Results

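The comparison described here is that of injured hind limb skeletal muscle from Myf6 knockout (KO) mice with injured muscle from wild-type (WT) mice. It rests on 6 of the 14 samples of the series, 3 KO and 3 WT libraries, which were taken by their genotype and injury labels. The series also holds 6 RNA-seq libraries of uninjured muscle from the same genotypes, and 1 ChIP-seq library with 1 control. The labels call the genotypes "WT" and "Myf6 KO" and give no allele, strain, age or sex, nor the kind of injury or the time after it. The same 3 animal numbers mark the injured and the uninjured libraries of a genotype, and KO and WT animals have different numbers, so genotype and litter or housing cannot be told apart. The ChIP-seq used a Flag antibody in primary myotubes grown from adult satellite cells, with no replicate.

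Myf6, also called MRF4, is a basic helix-loop-helix transcription factor of the family that also holds Myod1, Myf5 and Myog. These factors bind a short DNA motif, the E-box, and switch on muscle genes, and Myf6 is the member most abundant in mature adult fibres. By its title, the series is about Myf6, myokines (signalling proteins secreted by muscle) and the upkeep of the adult muscle stem cell pool. After injury, muscle normally passes through inflammation, proliferation of satellite cells (the muscle stem cells) and the formation of new fibres that express embryonic and neonatal myosins.

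Expression values were RPM, reads assigned to a gene, scaled to a total of 1000000 in each library. The injured libraries held 13329975 to 49392472 reads, so that 3 reads, taken as the floor of detection, corresponded to 0.0607 to 0.225 RPM. Skeletal muscle markers were abundant in all 6 libraries: Myh4, the fastest myosin heavy chain, was at 42323 to 56066 RPM and Acta1, skeletal actin, at 14358 to 33789 RPM. KO replicate 2 stood apart. Over the 12625 genes tested, which are not independent of each other, its Pearson correlation with the other KO libraries was 0.893 to 0.901, while KO replicates 1 and 3 correlated at 0.991 and the WT libraries at 0.966 to 0.983. Its correlation with the 3 WT libraries was 0.910 to 0.957. Mitochondrial genes took 23.2% of its reads, against 4.95% and 4.30% in the other KO libraries and 8.35 to 14.8% in WT. Counts of calls for most gene lists are therefore given with and without that library.

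Myf6 itself was low in every KO library. It was at 3.32, 2.88 and 3.02 RPM in KO and at 47.9, 121 and 72.5 RPM in WT, so the groups did not overlap and WT replicate 2 was the highest. The log2 change, KO minus WT on the log2(RPM + 1) scale used for all changes here, was -4.22 (SE 0.33, limma adjusted p 0.00697). The remaining KO signal was above the floor of each library. The labels of all 6 libraries therefore matched the level of the targeted gene.

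Of 12625 genes tested, 34 differed at a limma adjusted p under 0.05, which is 0.269% of the genes. Below, called refers to limma with all 6 libraries unless another tool or a left-out library is named. Of these, 22 rose (0.174%) and 12 fell (0.095%) in KO, and in all 34 the KO and WT libraries did not overlap. Testing required 1 RPM in 3 or more of the 6 libraries. In 16 of the rises every WT library, and in 3 of the falls every KO library, was under 1 RPM. The filter alone fixed the separation of those genes. At an unadjusted p under 0.05 there were 639 higher (5.06%) and 664 lower genes (5.26%). DESeq2 on reads recovered from the RPM values called 182 of 17357 genes higher (1.05%) and 159 lower (0.916%), and in the authors' deposited table the q-value was under 0.05 for 124 of 49585 genes higher (0.25%) and 101 lower (0.204%). Over all genes tested, the 3 KO libraries lay above the 3 WT libraries for 8.29% and below them for 8.63%. Of the genes tested, 12608 had a DESeq2 value, and DESeq2 called 147 of them higher and 136 lower. Its counts for the gene lists are to be set beside these. The number of calls turned on single libraries. It was 2343 of 12312 genes (19.0%) without KO replicate 2, with 1168 higher (9.49%) and 1175 lower (9.54%), and 0 without any 1 of the other 5 libraries, where 651 to 882 genes had an unadjusted p under 0.05. Of the 34 genes, 18 could be tested without KO replicate 2, and all 18 were called with the same sign. The other 16 no longer passed the filter on low values.

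**Figure D1:**
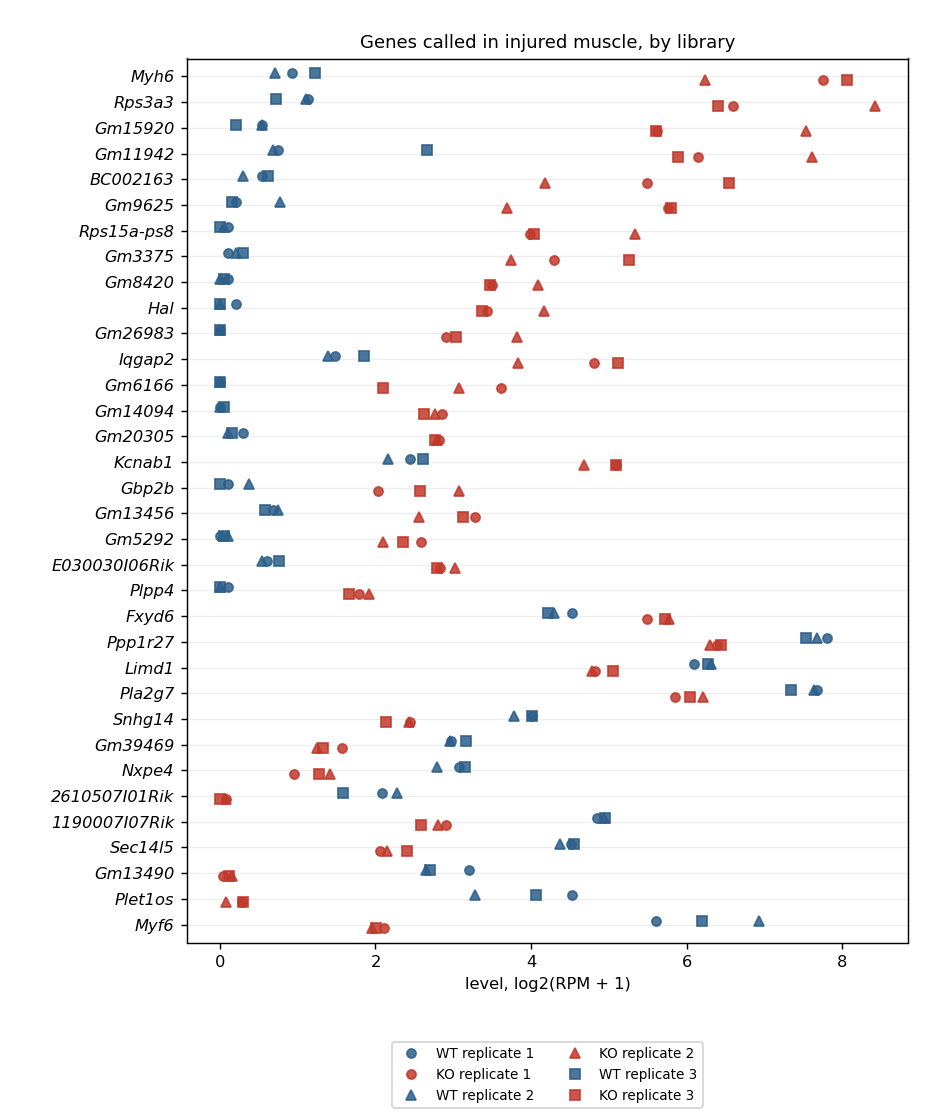
Level of the 34 genes called in injured muscle, as log2(RPM + 1) on the horizontal axis, with 1 gene per row ordered by the change, KO libraries in red and WT libraries in blue, and the marker shape giving the replicate. KO and WT markers do not overlap in any row, from Myh6 at the top with a change of 6.40 to Myf6 at the bottom with -4.22. The filter on low values fixed this for genes with every WT or every KO library under 1 RPM.

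The largest rise was that of Myh6, the alpha-cardiac myosin heavy chain, which in adult mice is the main myosin of the heart. Myh6 was at 215, 74.7 and 267 RPM in KO and at 0.900, 0.636 and 1.34 RPM in WT. Every KO library was far above every WT library, and its log2(RPM + 1) differed by 6.40 between the groups (SE 0.47, limma adjusted p 0.00697). Because Myh6 and the slow myosin gene Myh7 are near-identical neighbours on chromosome 14, and the handling of reads that fit both is not given in the sources used here, part of their counts may be exchanged. Without KO replicate 2 the change of Myh6 was 6.96.

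Among the other rises were several protein-coding genes. Hal, histidine ammonia-lyase, which starts the breakdown of histidine, was at 9.77, 17 and 9.29 RPM in KO and at 0.150, 0 and 0 RPM in WT. Kcnab1, an accessory subunit of voltage-gated potassium channels, was at 33.1, 24.7 and 33.1 RPM in KO and at 4.43, 3.48 and 5.09 RPM in WT, a change of 2.55 (SE 0.21, limma adjusted p 0.00697). Iqgap2, a scaffold protein that binds actin and small GTPases, was at 27.2, 13.2 and 33.7 RPM in KO against 1.80, 1.61 and 2.60 RPM in WT. For both of these the lowest KO library, replicate 2, was still several times the highest WT library. Fxyd6, a regulator of the sodium-potassium pump, showed the smallest rise of those called, from 22.1, 18.6 and 17.6 RPM in WT to 44, 53.7 and 51.6 RPM in KO (log2 change 1.31, SE 0.17, limma adjusted p 0.0483). Gbp2b, an interferon-inducible guanylate-binding protein, rose from at most 0.299 RPM in WT to 3.10, 7.41 and 4.94 RPM in KO, and the lipid phosphatase Plpp4 rose from at most 0.0750 to 2.46, 2.77 and 2.17 RPM.

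Pseudogenes made up much of the rest. The gene table used gave a type for 32 of the 34 genes. All 12 pseudogenes among them had risen, which is 60% of the 20 rises with a type and 37.5% of all called genes with a type, while 1.19% of the tested genes with a type were pseudogenes. Rps3a3, a copy of the ribosomal protein gene Rps3a1, was at 95.8, 343 and 83.4 RPM in KO and at 1.20, 1.16 and 0.651 RPM in WT (log2 change 6.15). Rps3a1 itself was at 311, 107 and 303 RPM in KO and at 365, 409 and 429 RPM in WT, a change of -0.88 that did not pass the test (limma adjusted p 0.530). The KO library with the highest Rps3a3, replicate 2, was thus the one with the lowest Rps3a1. Rps15a-ps8 was at 14.8, 39.3 and 15.4 RPM in KO and at 0.0750, 0.0374 and 0 RPM in WT, and its parent Rps15a had a change of -0.43 (limma adjusted p 0.440). Reads of such copies are hard to assign to 1 gene, so these values are uncertain. In 16 of the 22 rises every WT library was under 1 RPM. Such genes passed the filter on low values only through the KO libraries, as did 64 of all 12625 genes tested. The shares of pseudogenes are therefore a description.

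The falls after Myf6 were led by noncoding RNAs. All 4 long noncoding RNAs among the called genes had fallen. They were 12.5% of the called genes with a type, against 2.84% of tested genes with a type. In Plet1os, Gm13490 and 2610507I01Rik every KO library was under 1 RPM, so the filter on low values fixed their separation and direction. The share is therefore a description. Plet1os, on chromosome 9, was at 0.214, 0.0553 and 0.223 RPM in KO and at 22.1, 8.72 and 15.7 RPM in WT, and Gm13490 was at 0.0268, 0.111 and 0.0810 RPM in KO and at 8.18, 5.28 and 5.51 RPM in WT. For both, the KO libraries were at or near the floor. Snhg14, a host transcript of small nucleolar RNAs in an imprinted domain, was at 4.44, 4.37 and 3.38 RPM in KO and at 15.2, 12.7 and 15.2 RPM in WT, a change of -1.60. Whether the counting used strand is not given in the sources used here, so transcripts named as antisense to another gene cannot be told apart from their partner.

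Of the protein-coding falls, several were of well-expressed genes. Pla2g7, a secreted phospholipase that breaks down platelet-activating factor, was at 56.9, 72.8 and 65.2 RPM in KO and at 204, 198 and 161 RPM in WT, a change of -1.52 (SE 0.18, limma adjusted p 0.0345). Ppp1r27, a regulatory subunit of protein phosphatase, was at 83.2, 78.1 and 86.1 RPM in KO and at 223, 203 and 185 RPM in WT, a change of -1.29 (SE 0.16, limma adjusted p 0.0346). Replicates of each group lay close together for both genes. Limd1, a LIM-domain adaptor protein, changed by -1.34, Nxpe4 by -1.79 and Sec14l5 by -2.27. Sec14l5, a lipid-transfer protein of the Sec14 family, was at 3.16, 3.43 and 4.31 RPM in KO and at 21.8, 19.7 and 22.5 RPM in WT. The small protein gene 1190007I07Rik, on chromosome 10 like Myf6, fell by 2.15 on the log2 scale.

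By position, 6 of the 32 called genes with a type were on chromosome 9 (18.8%, against 5.71% of tested genes with a type) and 4 on chromosome 10 (12.5% against 4.87%). The 4 on chromosome 10 were Myf6, Hal, 1190007I07Rik and E030030I06Rik. The 6 on chromosome 9 were Plet1os, Nxpe4, Gm39469, Limd1, Fxyd6 and Gm6166. These counts were looked at after the calls were known and are given as a description.

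Uninjured muscle shared part of these calls. Of the 33 genes that were tested there, 15 were among the 35 genes called of 12460 (0.281%) between uninjured KO and WT. Myh6 changed by 6.64 in uninjured muscle, Rps3a3 by 6.52 and Myf6 by -3.9. Uninjured WT replicate 2 held only 1880087 reads, so that its floor of 3 reads was 1.60 RPM, above the filter of 1 RPM. The interaction test, which asks whether the KO difference in injured muscle departs from that in uninjured muscle, called 0 of 13337 genes in limma, with 208 (1.56%) at an unadjusted p under 0.05. Among the 34 called genes the smallest unadjusted interaction p was 0.0509, for Fxyd6, whose change was 1.31 in injured and 0.34 in uninjured muscle. No gene called in injured muscle was therefore shown to differ between the conditions, and a p that misses the threshold does not show that the differences were equal.

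Slow fibre genes had higher estimates in KO muscle, and whether they were called differed between tools. Slow (type I) fibres use the myosin Myh7 with its own light chains and troponins, and fast fibres use Myh4, Myh1 or Myh2 with theirs. All 18 slow fibre contractile genes tested had a higher estimate in KO, with a median log2 change of 1.58 beside 0.01 for all genes tested. Limma called 0 of them, with 9 at an unadjusted p under 0.05 and a smallest adjusted p of 0.213, and edgeR called 0. DESeq2 called 8, all higher, and 7 passed by q-value in the authors' deposited table. In 8 of the 18 (44.4%, against 8.29% of all genes) all KO libraries lay above all WT libraries. When KO replicate 2 was left out, limma called 12 of the 18, all higher (66.7%, against 9.49% of all genes), with a median of 2.09. Without WT replicate 2, which had the lowest slow fibre levels of the WT libraries, the median was 1.08. The library medians of these genes relative to the WT mean were 2.43, 0.49 and 1.84 in KO and 0.20, -0.91 and 0.63 in WT. Those of the adipocyte markers described below had the same order, at 2.79, 0.29 and 1.77 in KO and 0.34, -1.18 and 0.73 in WT, and their part in the slow fibre values was not tested.

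Myh7, the slow and beta-cardiac myosin heavy chain, was at 913, 209 and 469 RPM in KO and at 73.1, 34.6 and 109 RPM in WT. All KO libraries were above all WT libraries and replicate 2 was the lowest KO library. The change was 2.76 (SE 0.61, limma adjusted p 0.213), and 3.31 without replicate 2 (limma adjusted p 0.00876). Tnnt1, slow troponin T, was at 938, 355 and 628 RPM in KO and at 130, 50.4 and 215 RPM in WT, a change of 2.39 (limma adjusted p 0.247). Tpm3, slow tropomyosin, was at 1087, 214 and 693 RPM in KO and at 121, 55 and 177 RPM in WT. Myl2, the slow and ventricular regulatory light chain, was at 480 to 1210.2 RPM in KO and 85 to 359 RPM in WT. In each of these genes the order of the libraries was the same within a group: replicate 1 highest and replicate 2 lowest in KO, replicate 3 highest and replicate 2 lowest in WT. Sln, sarcolipin, a small inhibitor of the sarcoplasmic calcium pump, was at 132, 26.3 and 47.1 RPM in KO and at 9.0, 2.70 and 16.6 RPM in WT. Tnni1, slow troponin I, overlapped between groups only because KO replicate 2, at 85.9 RPM, was below WT replicate 3, at 94.3 RPM. Mybpc1, slow myosin-binding protein C, had a change of 0.52, with KO replicate 2 at 151 RPM below all WT libraries.

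**Figure D2:**
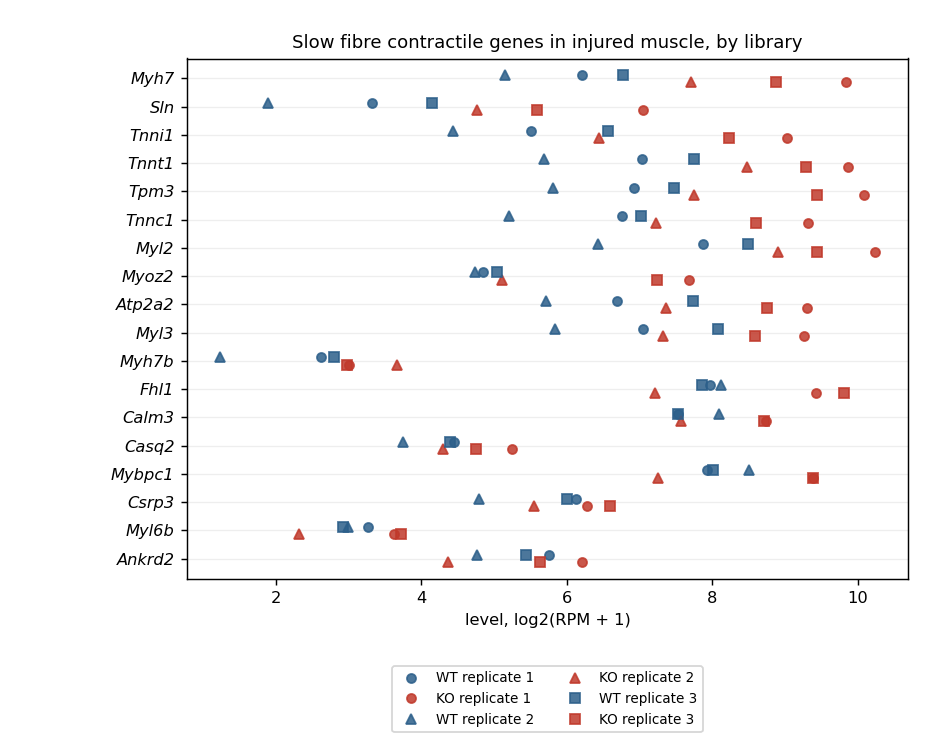
Level of the 18 slow fibre contractile genes, as log2(RPM + 1) on the horizontal axis, with 1 gene per row ordered by the change, KO libraries in red and WT libraries in blue, and the marker shape giving the replicate. In 8 rows all red markers lie right of all blue ones, and KO replicate 2 (red triangle) lies left of the other KO libraries in most rows.

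The promoters of 4 slow fibre genes and of Myh6 are shown because Myf6 binding was measured in myotubes, and they were picked after their values were seen from the genes with high estimates in KO. Each line is the 250 bases before 1 annotated RefSeq start site in GRCm38.p6, 5′ to 3′ on the gene's strand, with every E-box core CANNTG in capitals. The windows are chr5:122092939-122093188 on the + strand for Myl2, chr3:90072401-90072650 on the + strand for Tpm3, chr7:4515976-4516225 on the − strand for Tnnt1, chr14:54994627-54994876 on the − strand for Myh7 and chr14:54966608-54966857 on the − strand for Myh6.
Myl2: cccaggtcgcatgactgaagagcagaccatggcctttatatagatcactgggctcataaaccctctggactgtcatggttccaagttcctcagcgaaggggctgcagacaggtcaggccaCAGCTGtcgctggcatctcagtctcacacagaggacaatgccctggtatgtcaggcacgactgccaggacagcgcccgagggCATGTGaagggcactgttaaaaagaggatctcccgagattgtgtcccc
Tpm3: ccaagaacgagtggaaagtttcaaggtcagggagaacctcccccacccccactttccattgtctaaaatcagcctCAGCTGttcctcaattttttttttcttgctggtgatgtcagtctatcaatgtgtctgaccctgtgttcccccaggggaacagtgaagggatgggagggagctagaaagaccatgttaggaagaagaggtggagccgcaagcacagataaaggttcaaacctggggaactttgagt
Tnnt1: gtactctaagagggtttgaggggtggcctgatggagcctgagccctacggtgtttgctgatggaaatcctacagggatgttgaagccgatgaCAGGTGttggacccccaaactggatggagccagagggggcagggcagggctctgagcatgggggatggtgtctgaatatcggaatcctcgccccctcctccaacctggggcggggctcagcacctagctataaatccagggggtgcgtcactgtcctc
Myh7: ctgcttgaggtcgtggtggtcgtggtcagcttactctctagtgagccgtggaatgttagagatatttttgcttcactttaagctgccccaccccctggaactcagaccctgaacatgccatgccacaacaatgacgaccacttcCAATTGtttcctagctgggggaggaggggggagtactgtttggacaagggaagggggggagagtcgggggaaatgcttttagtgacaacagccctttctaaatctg
Myh6: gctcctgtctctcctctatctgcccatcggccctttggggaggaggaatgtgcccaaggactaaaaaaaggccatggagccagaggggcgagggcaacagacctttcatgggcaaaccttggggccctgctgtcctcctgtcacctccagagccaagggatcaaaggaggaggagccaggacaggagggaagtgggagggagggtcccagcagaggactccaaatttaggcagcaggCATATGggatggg

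Each window held CANNTG, as did 66.2% of the 32817 promoter windows of that length. The form CAGCTG, the E-box that myogenic factors are known to favour, is its own reverse complement, is contained in CANNTG and was present once in each of the Myl2 and Tpm3 windows, against 13% of all windows. The Myl2 and Tpm3 windows also held the summit of a deposited Myf6 peak, 122 and 165 bp before the start site, with a fold enrichment of 14.2 and 8.22 by the authors' peak caller. The nearest summit was 580 bp before the start site of Tnnt1 and 2875 bp before that of Myh7, with fold enrichments of 7.40 and 6.39. Myh6 had no peak within 5 kb of its start site, the nearest summit being 20483 bp away. A motif match is a description of these letters and not a binding site.

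Peaks lay near many sarcomere genes, whether or not they differed between the genotypes. Of the slow fibre genes with an annotated start site, 11 of 16 (68.8%) had a Myf6 peak within 5 kb. The share was 58.3% (7 of 12) for fast fibre genes and 59.1% (13 of 22) for Z-disc, titin and other giant sarcomere proteins, against 11% of the 9585 tested genes with a start site. Of the called genes with a start site, 2 of 18 (11.1%) had one: Fxyd6, with 2 peaks, and Gm39469, with a summit at 671 bp. For Fxyd6, the peak with the higher fold enrichment had its summit 1675 bp from a start site. The peaks are from myotubes in culture and the RNA from whole muscle, and the list has no replicate.

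Fast fibre genes showed no common direction. Of 18 tested, 0 were called in limma or DESeq2, and 0 had an unadjusted p under 0.05. Without KO replicate 2 the median was 0.17 and limma called 2 higher (11.1%, against 9.49% of all genes) and 0 lower. The 2 were Actn3 and the fast myosin-binding protein gene Mybpc2, at 0.86 and 0.98. All KO libraries were above WT in 2 (11.1%, against 8.29% of all genes) and below in 3 (16.7%, against 8.63%). The median log2 change of 0.00 turned to -0.07 with upper quartile scaling. Myh4 was at 53719, 56066 and 54210.0 RPM in KO and at 54832, 51848 and 42323 RPM in WT, with overlapping groups and a change of 0.15 (SE 0.32). Mylpf, the fast regulatory light chain, was at 18171, 17464 and 17476 RPM in KO and at 26964, 25609 and 22379 RPM in WT, so the groups separated, but the change of -0.49 did not pass the test (limma adjusted p 0.576). Pvalb, the calcium buffer parvalbumin of the fastest fibres, had a change of -0.48, and Actn3, the fast fibre alpha-actinin, one of 0.63, both without overlap and neither called with all 6 libraries. Myh2, of type IIA fibres, ranged from 260 to 1767 RPM in KO and from 387 to 1172 RPM in WT. Its change of 0.33 became -0.04, -0.18 or -0.09 without KO replicate 1, KO replicate 3 or WT replicate 3. Myh1, of type IIX fibres, was at 1141, 216 and 1799 RPM in KO and at 605, 853 and 234 RPM in WT.

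Embryonic, neonatal and cardiac contractile genes leaned upwards. Of 16 tested, limma called Myh6 and DESeq2 2 genes, both higher. In 8 of the 16 (50%, against 8.29% of all genes) all KO libraries lay above all WT libraries, with none below. Myh3, the embryonic myosin of newly forming fibres, was at 5.30, 2.21 and 3.81 RPM in KO and at 1.58, 1.31 and 0.689 RPM in WT, a change of 1.09 (limma adjusted p 0.316). That level is low in both groups beside the neonatal myosin Myh8, at 778 to 2173 RPM in KO and 1038 to 1762 RPM in WT (change 0.08). Myh13, the extraocular myosin, was at 6.83, 3.82 and 5.12 RPM in KO and at 2.1, 2.02 and 1.03 RPM in WT. Acta2, the smooth muscle actin, was at 60.7, 121 and 86.1 RPM in KO and at 56.2, 32.9 and 36.1 RPM in WT, and is also a pericyte and smooth muscle marker. Without KO replicate 2, limma called 5 of the 15 members tested, all higher (33.3%, against 9.49% of all genes).

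Z-disc, titin and other giant proteins had 0 of 30 called in limma or DESeq2 and a median of 0.28. KO lay above WT in 2 (6.67%, against 8.29% of all genes) and below in 3 (10%, against 8.63%). Myom1, the M-band protein myomesin, was at 1663, 1097 and 1898 RPM in KO and at 742, 1079.9 and 834 RPM in WT, and Synpo2l had an estimate of 0.63. When KO replicate 2 was left out, limma called 10 of the 30, all higher (33.3%, against 9.49% of all genes). Of 30 excitation-contraction coupling genes 2 lay above (6.67%, against 8.29% of all genes) and 1 below (3.33%, against 8.63%). Limma called 0, DESeq2 1, and limma without KO replicate 2 called 6 higher and 1 lower (23.3%, against 19.0% of all genes). Clcn1, the muscle chloride channel, was at 42.5, 61.4 and 57.6 RPM in KO and at 90.5, 96 and 92.5 RPM in WT, a change of -0.79 (limma adjusted p 0.237). Of 25 dystrophin complex and neuromuscular junction genes, limma called 0 and DESeq2 1, which was lower, and the median was 0.06. Of these, 1 lay above (4%, against 8.29% of all genes) and 1 below (4%, against 8.63%). Without KO replicate 2, limma called 3 higher and 3 lower (24%, against 19.0% of all genes). Its lowest estimate was that of Chrnb1, a subunit of the acetylcholine receptor at the neuromuscular junction. Chrnb1 was at 12.4, 31.6 and 10.9 RPM in KO and at 61.6, 44 and 51.6 RPM in WT. Its change was -1.61 (limma adjusted p 0.257) with all libraries and -2.07 without KO replicate 2 (limma adjusted p 0.00250).

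Most nuclear-encoded subunits of the respiratory chain had slightly lower estimates in KO. These genes encode most of the proteins of oxidative phosphorylation, the mitochondrial process that makes ATP. Of 80 tested, 67 had a lower estimate. In 29 (36.25%, against 8.63% of all genes) each KO library was below each WT library, and none had them all above. The median was -0.28, and the library medians relative to the WT mean were alike in KO, at -0.32, -0.32 and -0.29. Limma called 0 of the 80, with 18 at an unadjusted p under 0.05, each of them lower, and DESeq2 called 6, all lower. Without KO replicate 2, limma called 22, all lower (27.5%, against 9.54% of all genes). Since a change of this size is a fold of little more than 1, scaling matters: the number with KO below WT was 28 with TMM scaling, 22 with scaling to reads outside mitochondrially encoded genes and 33 with upper quartile scaling. In uninjured muscle the median of these genes was -0.18, equal to that of all genes there.

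By complex, all KO libraries lay below WT in 13 of 36 subunits of complex I, 0 of 4 of complex II, 3 of 9 of complex III, 8 of 15 of complex IV and 5 of 16 of complex V, the ATP synthase. Ndufa12, of complex I, was at 185, 142 and 158 RPM in KO and at 365, 274 and 341 RPM in WT, a change of -1.01 (SE 0.19, limma adjusted p 0.152). Atp5l, of complex V, was at 108, 153 and 121 RPM in KO and at 236, 222 and 255 RPM in WT. Cox7a2, of complex IV, was at 214, 222 and 226 RPM in KO and at 347, 366 and 449 RPM in WT, and Uqcrb, of complex III, at 330, 312 and 327 RPM in KO and at 526, 495 and 545 RPM in WT. In these 4 genes KO replicate 2 was close to the other KO libraries, unlike in the slow fibre genes. Complex IV also held the highest estimates: the isoform gene Cox6a1, named after its value was seen, was at 121, 48.3 and 59.6 RPM in KO and at 48, 28.2 and 52.4 RPM in WT.

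**Figure D3:**
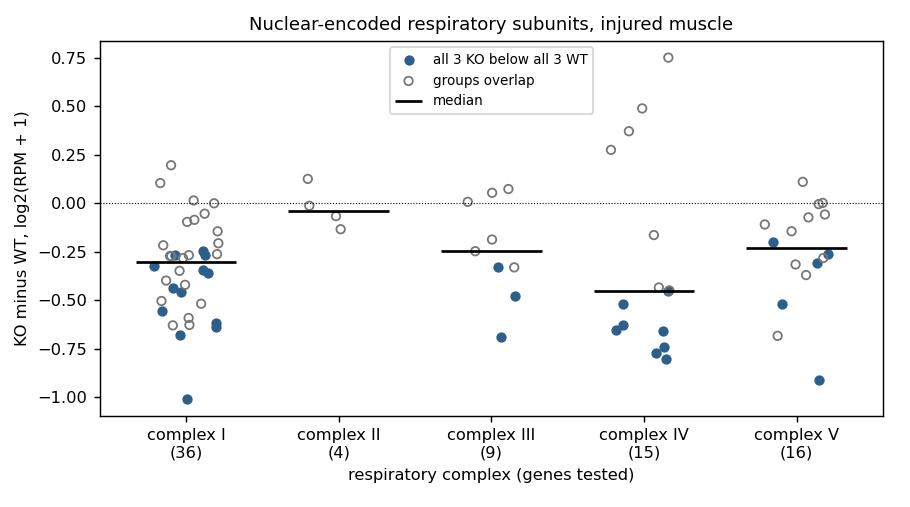
Log2 change, KO minus WT, on the log2(RPM + 1) scale for 80 nuclear-encoded respiratory subunits, by complex, with 1 point per gene, a black line at each complex's median, and filled points where KO and WT did not overlap and KO was lower. Most points lie below 0, with medians of -0.30 for complex I, -0.04 for complex II, -0.25 for complex III, -0.45 for complex IV and -0.23 for complex V.

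Among the mitochondrially encoded partners, KO replicate 2 lay apart from the other KO libraries. Their library medians relative to the WT mean were -1.12, 0.94 and -1.34 in KO and 0.04, -0.45 and 0.41 in WT. Of 11 tested, 0 were called in limma or DESeq2, 0 had an unadjusted p under 0.05, and none had groups that did not overlap. The mt-Nd2 level was 3646, 19360.3 and 3279 RPM in KO and 9970.4, 7216 and 13849.8 RPM in WT, with KO replicate 2 the highest library and the other KO libraries the lowest. Without that library limma called 6 of the 11, all lower (54.5%, against 9.54% of all genes).

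Ribosomal protein genes mostly had lower estimates in KO. Of 82 cytosolic ribosomal protein genes, limma called 0, with 12 lower at an unadjusted p under 0.05, and DESeq2 called 2, both lower. All KO libraries lay below WT in 21 (25.6%, against 8.63% of all genes) and above in 2 (2.44%, against 8.29%), with a median of -0.21. The count below was 12 of 49 in the large and 9 of 33 in the small subunit. It was 10 with scaling to reads outside mitochondrially encoded genes and 24 with upper quartile scaling. Rpl29 stood out at 28.5, 8.96 and 26.3 RPM in KO against 104, 103 and 72.3 RPM in WT (change -2.21, limma adjusted p 0.153). Rpl34 was at 155, 236 and 166 RPM in KO and at 370, 286 and 381 RPM in WT. Ribosomal protein genes have many near-identical copies, so these values are uncertain. When KO replicate 2 was left out, limma called 19 of 81 lower and 1 higher (24.7%, against 19.0% of all genes). Of 38 proteasome subunits, 0 were called in limma or DESeq2, with 1 at an unadjusted p under 0.05. All KO libraries lay below WT in 14 (36.8%, against 8.63% of all genes) and above in none. The count below was 8 with scaling to reads outside mitochondrially encoded genes (21.1%, against 7.02% of all genes). Their median was -0.11 and turned to 0.02 without KO replicate 2, whose library median was -0.34 beside 0.02 and -0.03 in the other KO libraries. Without it, limma called 2 higher and 1 lower (7.89%, against 19.0% of all genes).

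**Figure D4:**
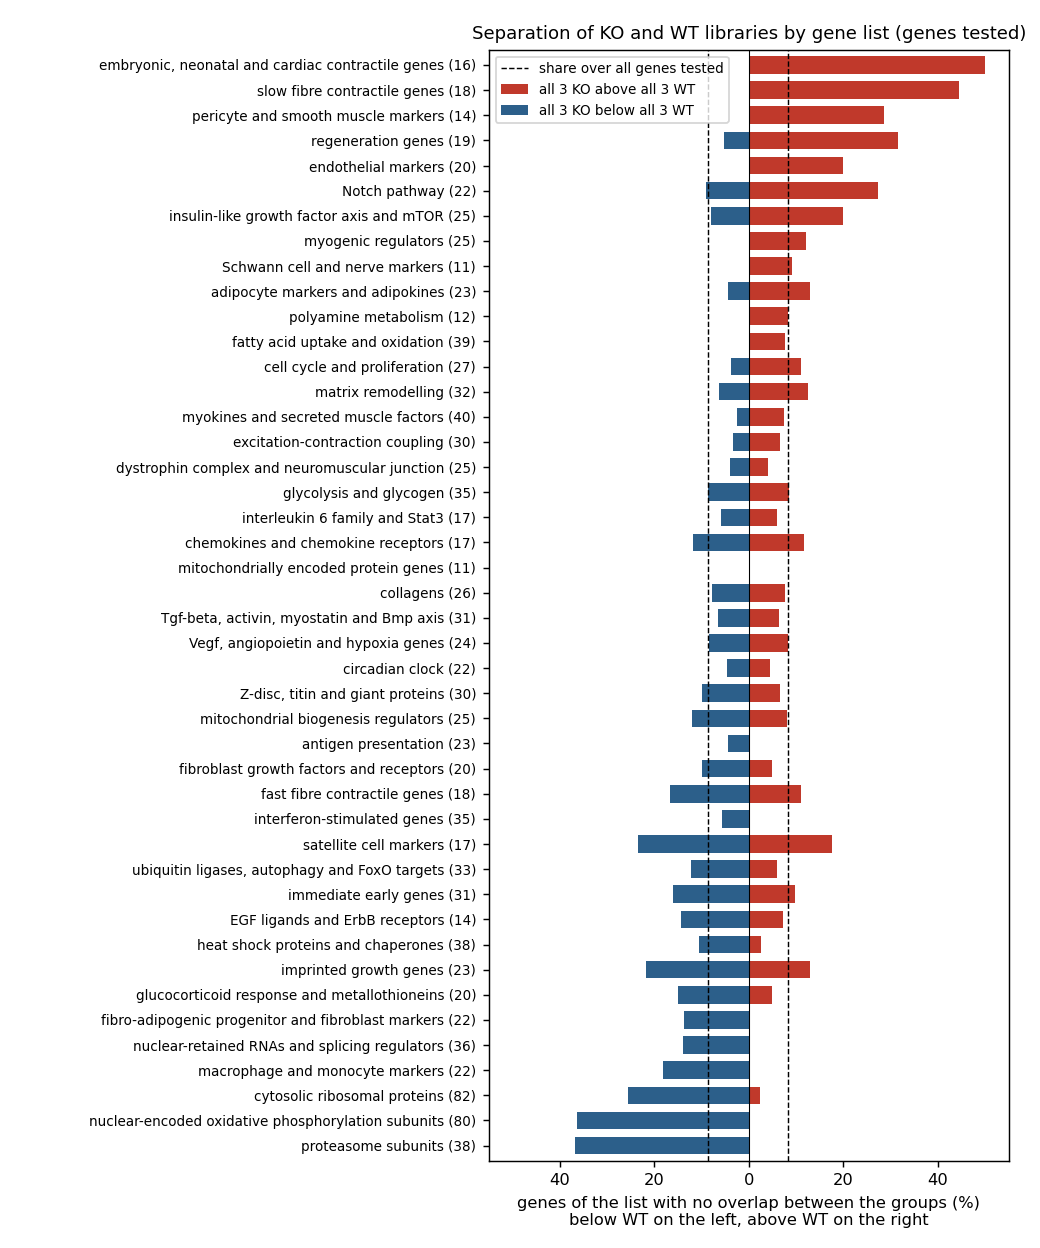
Share of the tested genes of each list, number tested in brackets, whose KO libraries all lay above (red, right) or all below (blue, left) the WT libraries, for the lists with at least 10 genes tested, and dashed lines at the share over all genes tested. Embryonic, neonatal and cardiac contractile genes reach 50% above and slow fibre genes 44.4%, with none below, while respiratory, proteasome and ribosomal protein genes lead on the left, beyond the 8.63% of all genes.

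By library median, adipocyte genes were highest in KO libraries 1 and 3, though not every gene was. Fat cells lie between muscle fibres and around muscle, and in bulk tissue more cells of a type and more RNA per cell cannot be told apart. Of 23 adipocyte markers and adipokines, 21 had a higher estimate, with a median of 1.58. Limma called 0, with 8 higher at an unadjusted p under 0.05, DESeq2 called 4, all higher, and 3 passed by q-value in the authors' deposited table. In all, 3 had all KO libraries above WT (13.04%, against 8.29% of all genes). Only 1, Car3, had all below (4.35%, against 8.63%). Pparg, the master regulator of adipocyte formation, was at 29.4, 10.9 and 13.4 RPM in KO and at 3.9, 1.98 and 4.17 RPM in WT, a change of 2.04 (SE 0.40, limma adjusted p 0.162). Lipe, hormone-sensitive lipase, was at 139, 35 and 62.7 RPM in KO and at 30.8, 12.3 and 34.7 RPM in WT, also without overlap. Adipoq, the adipokine adiponectin, was at 172, 24.4 and 74.1 RPM in KO and at 17.8, 3.97 and 34.4 RPM in WT, where KO replicate 2 lay within the WT range. Other markers departed from the order of the medians. Fabp4 was at 1823, 1505 and 896 RPM in KO and at 919, 327 and 933 RPM in WT. Cfd, Retn and Adrb3 were also lower in KO replicate 3 than in WT replicate 3, and Slc7a10 was highest in KO replicate 2. Without KO replicate 2, limma called 13 of the 23, all higher (56.5%, against 9.49% of all genes), and the median was 2.31. Without KO replicate 1 or WT replicate 2 the median was 0.95 or 1.03. Uninjured KO muscle gave a median of 1.33 for these genes.

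Fatty acid uptake and oxidation genes had a median of 0.39 over 39, with 0 called in limma or DESeq2 and 4 at an unadjusted p under 0.05. KO lay above WT in 3 (7.69%, against 8.29% of all genes) and below in none. When KO replicate 2 was left out, limma called 18, all higher (46.2%, against 9.49%). Scd1, which makes monounsaturated fatty acids and is abundant in fat, ranged from 293 to 4319 RPM in KO and from 62.8 to 580 RPM in WT. Cd36, a fatty acid transporter of muscle, fat and endothelium, was at 358, 239 and 269 RPM in KO and at 146, 102 and 198 RPM in WT. Glycolysis and glycogen genes had a median of 0.05 over 35, with 0 called in limma. KO lay above WT in 3 (8.57%, against 8.29% of all genes) and below in 3 (8.57%, against 8.63%). Without KO replicate 2, limma called 7 higher and 1 lower (22.9%, against 19.0% of all genes). Pygb and Ldhb, the glycogen phosphorylase and lactate dehydrogenase forms common outside fast muscle, had estimates of 1.29 and 1.06 without overlap between groups. Neither was called with all 6 libraries in limma, while both were without KO replicate 2.

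Myokines and secreted muscle factors, the group the series is about, had 0 called of 40 tested in limma, with 6 at an unadjusted p under 0.05, and 1, Vegfa, in DESeq2. Without KO replicate 2, limma called 5 of 39 higher and 3 lower (20.5%, against 19.0% of all genes). All KO libraries were above WT in 3 (7.5%, against 8.29% of all genes) and below in 1 (2.5%, against 8.63%). Vegfa, the main angiogenic growth factor, was at 64.5, 147 and 66.8 RPM in KO and at 249, 194 and 225 RPM in WT. KO replicate 2 was the KO library nearest to WT, and the groups did not overlap. The change was -1.36 (SE 0.33, limma adjusted p 0.259), and -1.74 without replicate 2 (limma adjusted p 0.00250). Igf2, a growth factor of regenerating and fetal muscle, was at 67.8, 64.3 and 46.5 RPM in KO and at 36.6, 18 and 32.3 RPM in WT, a change of 1.06 (limma adjusted p 0.315). Tgfb1, a cytokine that drives matrix formation, was at 7.60, 5.26 and 8.38 RPM in KO and at 4.35, 3.63 and 2.79 RPM in WT. Mstn, myostatin, the secreted inhibitor of muscle growth, was at 71.9, 27.3 and 86.2 RPM in KO and at 37.1, 103 and 52.2 RPM in WT, with overlapping groups and a change of -0.08. That change became 0.42 without KO replicate 2 and 0.33 without WT replicate 2. Igf1 was at 23.5, 48.5 and 22.5 RPM in KO and at 57, 36.7 and 48.9 RPM in WT, a change of -0.65 with overlap and of -0.99 without KO replicate 2 (limma adjusted p 0.0191).

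Receptors and signalling genes for these factors were mostly close between genotypes. In the epidermal growth factor family, 0 of 14 genes were called in limma and 1, Errfi1, a feedback inhibitor of the receptor, had an unadjusted p under 0.05 (change -0.63). Egfr, the receptor, was at 12.3, 18.9 and 14.9 RPM in KO and at 16.9, 15.7 and 19 RPM in WT. Of the interleukin 6 family with Stat3, 0 of 17 were called in limma. Il6st, the shared receptor chain, was at 127, 134 and 128 RPM in KO and at 114, 96.1 and 103 RPM in WT, without overlap, and Stat3 overlapped (change 0.40). Pim1, a kinase induced by this pathway, was at 11.9, 16.9 and 10.1 RPM in KO and at 21.5, 18.6 and 23.9 RPM in WT. Among fibroblast growth factors and receptors, Fgf1 was at 20.5, 22.1 and 20.2 RPM in KO and at 14.9, 9.51 and 11.5 RPM in WT, a change of 0.78, while the satellite cell receptor Fgfr4 had one of -0.75. Limma called 0 of the 20 in that list and DESeq2 1, Fgf1. Without KO replicate 2 limma called 2 higher and 3 lower (25%, against 19.0% of all genes). When KO replicate 2 was left out, limma called 1 of 13 in the epidermal growth factor family, lower (7.69%, against 9.54% of all genes). It called 1 higher and 1 lower of 17 in the interleukin 6 family (11.8%, against 19.0%). In the insulin-like growth factor and mTOR list, limma called 0 with all libraries. Without KO replicate 2 it called 5 higher and 1 lower (24%, against 19.0% of all genes). Of its 25 genes, 5 had all KO libraries above WT (20%, against 8.29% of all genes) and 2 below (8%, against 8.63%). Akt1 was among those above, at 48.7, 38 and 48 RPM in KO and 31.4, 28.5 and 31.2 RPM in WT.

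Limma called 0 of 25 myogenic regulators other than Myf6, 0 of 17 satellite cell markers and 0 of 22 Notch pathway genes. DESeq2 called 1, Megf10, which was lower. With KO replicate 2 left out, limma called 7 of the 17 satellite cell markers (41.2%, against 19.0% of all genes), with Sdc3, Itgb1 and Des higher and Megf10, Fgfr4, Chodl and Cd34 lower. It also called 2 myogenic regulators higher, Myf5 and Nfix (8%, against 9.49%), and 1 Notch pathway gene lower (4.55%, against 9.54%). The related myogenic factors overlapped between groups: the log2 estimate was 0.28 for Myod1, -0.69 for Myog and 0.46 for Myf5. Myf5 was at 3.69, 0.277 and 3.42 RPM in KO and at 1.43, 1.12 and 0.957 RPM in WT, so KO replicate 2 was lowest and the other KO libraries highest. Of the myogenic regulators, 3 lay above (12%, against 8.29% of all genes) and none below. Mef2c, a partner of these factors, was at 436, 344 and 407 RPM in KO and at 269, 308 and 334 RPM in WT. Pax7, the defining satellite cell factor, was at 2.38, 3.26 and 2.27 RPM in KO and at 4.65, 2.70 and 4.17 RPM in WT, a change of -0.40 with overlap. Satellite cell markers split: 4 of 17 lay below WT (23.5%, against 8.63% of all genes), among them Megf10, Vcam1 and Fgfr4. Another 3 lay above (17.6%, against 8.29%), among them Sdc3. Vcam1 was at 4.42, 2.43 and 3.71 RPM in KO and at 6.08, 5.92 and 6.01 RPM in WT. In the Notch pathway, which keeps satellite cells quiescent, 6 of 22 lay above (27.3%, against 8.29% of all genes) and 2 below (9.09%, against 8.63%). The count above was 3 with upper quartile scaling (13.6%, against 6.47%). It was 2 with scaling to reads outside mitochondrially encoded genes (9.09%, against 9.32%). The median of the list was 0.11, and -0.07 without KO replicate 2. Heyl, a Notch target, was at 10.0, 12.3 and 11.2 RPM in KO and at 7.88, 8.16 and 9.34 RPM in WT, while Hes1, another target, was at 8.48, 10.0 and 10.1 RPM in KO and at 12.8, 12.5 and 12.2 RPM in WT.

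Among genes of growth arrest, Cdkn1a, the cell cycle inhibitor p21, was at 27, 25.2 and 25.9 RPM in KO and at 17.2, 11.5 and 15.5 RPM in WT, a change of 0.80 (limma adjusted p 0.251). Gadd45g, a stress and growth arrest gene, went the other way, at 34.5, 66.4 and 85.3 RPM in KO and at 177, 211 and 134 RPM in WT. Sgk1, a kinase induced by glucocorticoids, was at 67.2, 63.7 and 88.4 RPM in KO and at 153, 211 and 156 RPM in WT, a change of -1.23 (SE 0.21, limma adjusted p 0.105). A pair of imprinted genes were low in KO: Rian, a noncoding RNA, at 6.69, 9.24 and 5.81 RPM against 23.2, 18.2 and 17 RPM, and Peg3 at 18, 34 and 14.8 RPM against 72.8, 40.4 and 73 RPM. All 5 of these had groups without overlap. None was called in limma with all 6 libraries, whereas DESeq2, and limma without KO replicate 2, called all 5. They were named for small unadjusted p-values within their lists, so this separation is a description. Of 23 imprinted growth genes, 5 lay below (21.74%, against 8.63% of all genes) and 3 above (13.04%, against 8.29%). Their median was -0.02. Of 27 cell cycle genes, 3 lay above (11.11%) and 1 below (3.7%). Of 20 glucocorticoid response and metallothionein genes, 1 lay above (5%) and 3 below (15%).

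Limma and DESeq2 called no marker of macrophages, monocytes or neutrophils. The summed level of the 22 macrophage and monocyte markers tested was 186 to 226 RPM in KO and 222 to 320 RPM in WT, and only 2 of 14 neutrophil markers passed the filter on low values. Macrophage markers had a median of -0.37. All KO libraries lay below WT in 4 of 22 (18.2%, against 8.63% of all genes) and above in none. Each of the 4 had an unadjusted limma p under 0.05. The count below was 2 with scaling to reads outside mitochondrially encoded genes (9.09%, against 7.02% of all genes). It was 6 with TMM scaling (27.27%, against 9.01%) and 6 with upper quartile scaling (27.27%, against 10.99%). Without KO replicate 2 limma called 2, both lower (9.09%, against 9.54% of all genes). Mrc1, the mannose receptor of tissue-resident and repair macrophages, was at 10.9, 13.2 and 8.85 RPM in KO and at 27.2, 14.2 and 27.4 RPM in WT, and Lyz2, lysozyme, at 52.1, 50.9 and 55.8 RPM in KO and 76, 62.4 and 80.6 RPM in WT. Interferon-stimulated genes had a median of -0.30 over 35, but the KO libraries differed among themselves, with medians of -0.50, 0.28 and -0.71. Without KO replicate 2 limma called 7 of 33, all lower (21.2%, against 9.54% of all genes). Fibroblast and fibro-adipogenic markers gave 3 of 22 below (13.6%, against 8.63% of all genes). Pdgfra was among them, at 15, 17 and 16.7 RPM in KO and 21.7, 25.5 and 31.7 RPM in WT. Col6a6, a chain of collagen VI, was at 7.82, 7.91 and 7.47 RPM in KO and at 13.7, 17 and 13.5 RPM in WT, a change of -0.84 (limma adjusted p 0.182).

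Other cell type markers set KO replicate 2 apart. The library medians of 11 Schwann cell and nerve markers, relative to the WT mean, were -0.16, 1.89 and 0.38 in KO and 0.44, -0.99 and 0.54 in WT. Endothelial markers had library medians of 0.12, 1.1 and 0.00 in KO. The same library was the only KO library at the WT level for nuclear-retained RNAs and splicing regulators, whose library medians were -1.18, 0.10 and -1.28 in KO. Of the 36 genes of that list 5 had all KO libraries below WT (13.9%, against 8.63% of all genes). Limma called 0 and DESeq2 1, and without KO replicate 2 limma called 27, all lower (75%, against 9.54% of all genes). Pnisr, a splicing-related gene, was at 30.1, 59.5 and 25.2 RPM in KO and at 104, 118 and 80.6 RPM in WT. Gas5, a noncoding snoRNA host, was at 31.7, 79.1 and 37.1 RPM in KO and at 95, 91 and 105 RPM in WT. The part of these differences between libraries in the results for other genes was not tested.

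**Figure D5:**
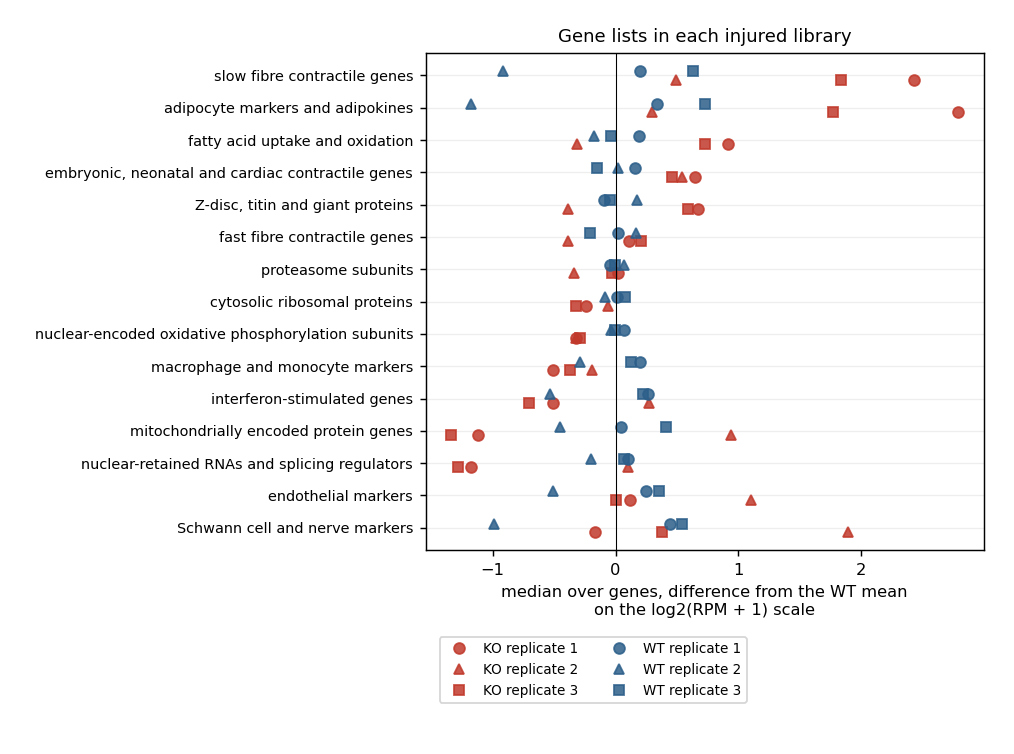
Median, over the genes tested of 15 lists, of the difference of each library from the WT mean on the log2(RPM + 1) scale, with KO libraries in red, WT libraries in blue and the marker shape giving the replicate. The 3 KO libraries lie together for nuclear-encoded respiratory subunits (-0.32, -0.32 and -0.29), while KO replicate 2 (red triangle) departs from the other KO libraries for slow fibre, adipocyte, Schwann cell, mitochondrially encoded and nuclear-retained genes.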

How the data were processed

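Total RNA, isolated with Trizol, went into TruSeq RNA v2 libraries, per the labels' protocols. For injured and for uninjured muscle the authors deposited a table of RPM values with 49585 genes. The submitters' processing notes name HISAT2 2.1.0, Bowtie 1.1.0, SAMtools, featureCounts, DESeq2 and the builds mm10 and GRCm38.p5, with no role given. How strand and reads with more than 1 match were handled is not given in the sources used here. The same tables hold the authors' log2 fold changes (WT over KO), p-values and q-values, used here only as an alternative. The ChIP peak caller was MACS2 2.1.0.20140616 with a q cutoff of 0.05, per the file headers. For each peak the authors' list gives the pileup (signal at the summit), the fold enrichment and 2 −log10 values (of p and of q), all the authors' own.

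Whole reads were recovered from the RPM values of each library. Within a tolerance of 0.1 read, 100% of the testable values were whole in each library. Depths of the injured libraries were 13329975 to 49392472 reads. The detection floors reflect counting error alone, since no molecular identifiers are named in the labels. The main test was limma 3.58.1 (R 4.3.3, lmFit, eBayes with trend) on log2(RPM + 1), for genes that reached 1 RPM in 3 or more of the 6 injured libraries, two-sided, with Benjamini-Hochberg adjustment over all genes tested and a threshold of 0.05. The filter for the fits with 1 library left out was the same. A change on this scale understates that of genes at low levels and is no bound where a group is at 0. The interaction was fitted on all 12 RNA libraries as 4 groups. It had no term for animal, although injured and uninjured libraries share animal numbers. The fit was tested on simulated data. edgeR 4.0.16 and DESeq2 1.42.0 served as alternatives on the recovered reads and called 33 and 341 genes. Nothing in the labels says that replicates of a group came from separate handling, so p-values measure the spread between these libraries. An exact test of 3 against 3 libraries cannot go below a two-sided p of 0.1.

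The 47 gene lists, the rule for named genes and the comparison itself were chosen with earlier results of these data known, so a list's counts are a description. Named were Myf6, the 15 largest rises and falls called, each list's called members and its 4 members with the smallest unadjusted p, and 16 genes in any case (Vegfa, Igf1, Mstn, Myod1, Myog, Myf5, Pax7, Egfr, Il6st, Stat3, Ppargc1a and the myosins Myh1, Myh2, Myh3, Myh4 and Myh7). Other members are named as examples after their values were seen. Gene types and start sites were those of GRCm38.p6, in which 96.2% of the tested genes were found, and promoter sequences are from RefSeq in that assembly.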

Additional observations from a re-analysis of the deposited data

How the results depend on the processing

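The number of genes called in injured muscle, 34 in limma, was 341 with DESeq2 on recovered reads (182 higher), 225 by the authors' deposited q-values (124 higher), 61 with all 12 libraries in 1 fit (36 higher) and 19 with no filter on low values (14 higher). DESeq2 and the deposited q-values included all 34. With TMM, upper quartile or other scaling, another pseudocount, a stricter filter, edgeR or no trend it was 26 to 42. Leaving out 1 library gave 0 to 2343, the last without KO replicate 2, and the cause was not tested. The interaction gave 0 calls under all its alternatives, with 64 to 1054 genes at an unadjusted p under 0.05. One alternative had a term for animal number, and 280 genes were at an unadjusted limma p under 0.05 there.

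Replicate numbers did not pair KO with WT libraries: deviations of same-numbered libraries correlated at -0.465, -0.612 and -0.304, and no library correlated best with its own number. Fitted with a replicate block, 0 genes were called and 644 were at an unadjusted p under 0.05.

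In windows chosen after seeing the data, 5 of 18 called genes had a Myf6 peak within 20 kb (27.8%, against 30.0% of tested genes), 2 within 1 kb (11.1% against 4.29%), and 0 had a peak with a fold enrichment of at least 10 within 5 kb (against 2.59%).

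Signs that turned were those of genes that were not called. Leaving out 1 library, Ppargc1a ranged from -0.59 to 0.0197 (0.0197 without KO replicate 2), Myh2 from -0.18 to 1.20 (below 0 without KO replicate 1, KO replicate 3 or WT replicate 3) and Mstn from -0.40 to 0.42 (above 0 without KO replicate 2 or WT replicate 2). The mt-Nd5 change was -0.62 in limma, 0.0147 with DESeq2 and in the authors' deposited table, and 0.0274 with edgeR. Among the injured libraries depth limits only the lowest genes, as 3 reads are 0.225 RPM at most. Uninjured WT replicate 2 held 1880087 reads, and 3 reads are 1.60 RPM there. Low genes are therefore less certain in the uninjured and interaction fits.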
